A study of Rattus norvegicus with 3 samples.

Results

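The endocannabinoid system was represented by 9 genes, taken by symbol from the 30957 genes listed for each animal: the receptor genes Cnr1 and Cnr2, the synthesis genes Dagla, Daglb and Napepld, and the breakdown genes Mgll, Faah, Abhd6 and Abhd12. The 9 symbols stood in 10 rows, since Faah had 2. All values came from motor cortex of 3 male Sprague-Dawley rats, numbered 12, 24-4 and 33, which had undergone cerebral ischemia with reperfusion (blood flow to the brain is cut off and then restored) and received electroacupuncture at the GB20 point on the neck. The labels give a time of 8 weeks without its starting point, and name neither the vessel that was closed nor the side that was sampled. The animals formed 1 group with 1 library each, and no animal without ischemia or without electroacupuncture was analysed here. The data thus show how high each gene stood and how far the treated rats differed, and no effect of either procedure.

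Endocannabinoids are lipid messengers that neurons release on demand from the postsynaptic side and that act back on the presynaptic terminal. The main ones are 2-arachidonoylglycerol (2-AG), made by the diacylglycerol lipases and broken down mostly by monoglyceride lipase, and anandamide, made in part by the phospholipase D encoded by Napepld and broken down by fatty acid amide hydrolase. In cortex the CB1 receptor sits on axon terminals and lowers transmitter release, while the CB2 receptor is known mainly from immune cells, including microglia.

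The tissue label was checked against marker genes. The glutamatergic marker Slc17a7 averaged an FPKM of 499 ± 184 and the GABAergic marker Gad1 47.8 ± 16.0 (SD, n = 3 rats, here and below). FPKM is the fragment count divided by gene length and library size, so levels can be compared between genes. The estimated depths were 13010000 to 17250000 fragments. Libraries differed in other cell markers. The summed FPKM of 5 choroid plexus markers was 3301, 128 and 13010, and that of 4 red blood cell genes was 558, 84.2 and 391, in rats 12, 24-4 and 33. Mitochondrial transcripts made up 14.4% to 26.6% of the summed FPKM.

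Breakdown genes had the highest summed level of the 3 roles in each rat, while receptor genes had the lowest in rats 12 and 24-4 and synthesis genes in rat 33. The FPKM of all 9 genes summed to 246 in rat 12, 306 in rat 24-4 and 224 in rat 33. The 4 breakdown genes held 64.1%, 68.3% and 62.1% of that sum in the same order of rats, the 3 synthesis genes 23.0%, 21.7% and 18.5%, and the 2 receptor genes 12.9%, 9.96% and 19.5%. Abhd12 was the highest breakdown gene in each rat and Cnr1 the higher receptor gene in each rat, while Dagla led synthesis in rats 12 and 24-4 and Daglb in rat 33.

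**Figure D1:**
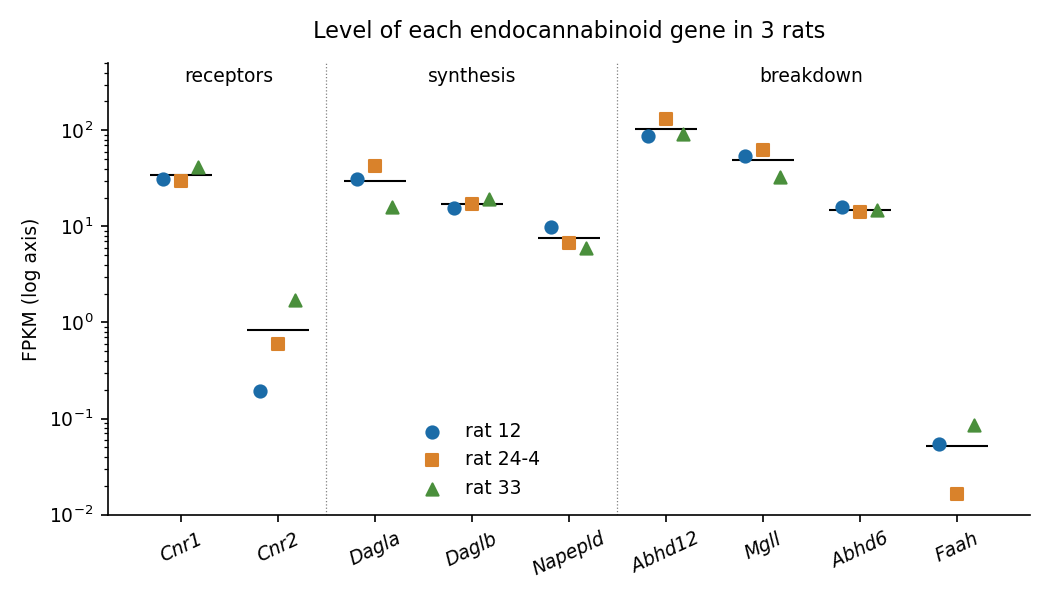
FPKM of the 9 genes on a log axis, with 1 point per rat and a line at the mean of the 3 rats, arranged by role. Abhd12 is highest at 104 ± 24.9, and Cnr2 (0.836 ± 0.786) and Faah (0.0523 ± 0.0349) lie far below the other 7 genes.

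Cnr1, which encodes the CB1 receptor (chromosome 5, 49311030 to 49333056, plus strand; coordinates here and below are those of the deposited files), stood at 31.4, 29.8 and 41.9 FPKM in rats 12, 24-4 and 33. Rat 33 was the highest, and the highest value was 1.41 times the lowest. Its mean of 34.4 ± 6.59 was above that of 82.7% of the 13754 genes whose mean FPKM reached 1, which are the genes tested below. Cnr1 made up 97.8 ± 1.66% of the summed receptor FPKM.

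Cnr2, which encodes the CB2 receptor (chromosome 5, 154260062 to 154268126, plus strand), stood at 0.194, 0.603 and 1.71 FPKM in rats 12, 24-4 and 33. The values spread over 8.85-fold from the lowest rat to the highest, the widest range of the 9 genes. Scaled by the estimated depths, they stood within 0.05 of the whole-number ratio 2 to 7 to 15, so the lowest value may rest on few fragments. If those whole numbers were the fragments themselves, the counted length would be 0.673 kb. The ratio does not fix the counts, which could be a multiple of these numbers over a longer length. On the log2(FPKM + 1) scale, the scale of every log2 difference of single genes below, Cnr1 was above Cnr2 by 4.76, 4.26 and 3.98 in rats 12, 24-4 and 33.

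Markers of microglia were ordered like Cnr2, but that order was not particular to them. Sums of oligodendrocyte markers (5385, 7006 and 12245 in rats 12, 24-4 and 33) and of astrocyte markers (1113, 1455 and 1595) had it too. Single markers departed from it, as 3 of 7 oligodendrocyte markers were lowest and 3 of 7 astrocyte markers highest in rat 24-4. The summed FPKM of 7 microglial markers was 68.4 in rat 12, 105 in rat 24-4 and 181 in rat 33. All 7 were highest in rat 33 and 6 were lowest in rat 12, while Siglech was listed at 0 in rats 12 and 24-4. Of all genes tested, 42.0% were highest in rat 33 and 37.9% lowest in rat 12. Markers of activated microglia and macrophages had summed FPKM of 887, 1660 and 1529 in rats 12, 24-4 and 33, of which Apoe alone gave 867, 1566 and 1331. Of these 6 markers, 5 were highest in rat 33 and all 6 were lowest in rat 12. Lymphocyte markers summed to 4.64, 9.63 and 19.0 in rats 12, 24-4 and 33, with 6 of 7 highest in rat 33. Most of these sums came from Cd4 (4.17, 4.11 and 16.6) and Cd3e (0.116, 4.81 and 0.477). The median of log2(FPKM + 1) over the lymphocyte markers was 0.148, 0.0651 and 0.398, lowest in rat 24-4. Fuca1, a lysosomal fucosidase gene that starts 991 bases beyond Cnr2 on the same strand, stood at 23.3, 41.0 and 72.2 FPKM in rats 12, 24-4 and 33. The part of these cells, or of reads from Fuca1, in the Cnr2 values was not tested. In tissue RNA, fewer cells of a type and less RNA per cell cannot be told apart.

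Dagla, which encodes the diacylglycerol lipase that makes most 2-AG in the adult rodent brain (chromosome 1, 226297016 to 226353611, minus strand), stood at 31.3, 42.5 and 16.1 FPKM in rats 12, 24-4 and 33. Rat 33 was the lowest, at a 2.64-fold distance from the highest. Daglb, which encodes the related lipase best known from microglia and macrophages (chromosome 12, 13114003 to 13157570, minus strand), had 15.5, 17.1 and 19.3 in rats 12, 24-4 and 33, within 1.24-fold. Dagla exceeded Daglb by 0.96 and 1.26 in rats 12 and 24-4, and the difference was -0.25 in rat 33. The mean difference of Dagla minus Daglb, 0.66 ± 0.80, was smaller than its spread between rats. Dagla made up 55.2%, 64.0% and 38.9% of the summed synthesis FPKM.

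Napepld, which encodes the phospholipase D that releases anandamide and related N-acylethanolamines (chromosome 4, 9966891 to 10002247, plus strand), was the lowest synthesis gene. It stood at 9.83, 6.80 and 6.01 FPKM in rats 12, 24-4 and 33. Dagla was above Napepld in all 3 rats, by 1.78 ± 0.62.

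Abhd12, which encodes a lipase of lysophosphatidylserine that also hydrolyses 2-AG (chromosome 3, 146630299 to 146690375, minus strand), was the most abundant of the 9 genes. It reached 87.7, 133 and 91.8 FPKM in rats 12, 24-4 and 33, above the level of 95.5% of the genes tested by its mean. The locus overlaps Pygb, the brain glycogen phosphorylase gene on the opposite strand, by 4237 bases. Pygb had 48.2 ± 3.13, within 45.0 to 51.2. Whether counting used the strand is not given in the sources used here, so reads in the shared stretch cannot be told apart.

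Mgll, which encodes monoglyceride lipase, the main 2-AG hydrolase of rodent brain (chromosome 4, 120671489 to 120771088, plus strand), stood at 54.2, 61.9 and 32.6 FPKM in rats 12, 24-4 and 33. Like Dagla it was lowest in rat 33. Mgll was below Abhd12 in all 3 rats, with differences of -0.68, -1.09 and -1.47 for Mgll minus Abhd12. Abhd6, which encodes a membrane-bound 2-AG hydrolase of the postsynaptic side (chromosome 15, 18647844 to 18695133, minus strand), had 15.8, 14.1 and 14.8 in rats 12, 24-4 and 33. Its coefficient of variation of 5.80% was the lowest of the 9 genes in deposited FPKM, but after rescaling without mitochondrial genes it was 13.5%, against 10.5% for Daglb. Mgll exceeded Abhd6 by 1.62 ± 0.49, and Abhd12 exceeded it by 2.70 ± 0.40, with 1 sign in all 3 rats for each. Of the summed FPKM of these 3 hydrolases, Abhd12 held 61.7 ± 5.41%, Mgll 29.2 ± 5.49% and Abhd6 9.14 ± 2.10%.

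Faah, which encodes the main enzyme of anandamide breakdown, lay near 0 in all 3 rats. The files hold a pair of rows with that symbol, both on the minus strand of chromosome 5. The first (ENSRNOG00000045949, 134852875 to 134871775) stood at 0.0547, 0.0162 and 0.0859 FPKM in rats 12, 24-4 and 33. The second (ENSRNOG00000011019, 134331929 to 134348995) was listed at 0 in all 3 rats. Scaled by the estimated depths, the first row stood within 0.05 of the whole-number ratio 3 to 1 to 4. If those whole numbers were the fragments themselves, the counted length would be 3.57 kb and the rats would hold 3, 1 and 4 fragments, at or under a floor of 3 in rats 12 and 24-4.

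The Faah values are uncertain, because reads shared by the 2 rows could have been split or dropped in counting, which was not tested. RefSeq, on the later assembly GRCr8, lists 1 gene named Faah. Among 374 symbols with exactly 2 rows, 50.8% had both rows at a mean FPKM under 0.1, against 37.8% of 26218 symbols with 1 row. Over all 496 symbols with more than 1 row, the share with every row under 0.1 was 41.1%. These shares were not matched for kind of gene and do not show what happened to Faah. Mgll exceeded Faah by 5.54 ± 0.52 and Napepld exceeded it by 3.00 ± 0.34, sizes that the added 1 FPKM limits.

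RefSeq start-site windows (250 bases before to 50 after an annotated start, assembly GRCr8) were found for 7 of the 9 genes, in 9 windows; windows of Cnr1 and Dagla were not analysed here. They are shown for Mgll, which had the most CG dinucleotides, for Faah, and for the most upstream of 3 Cnr2 starts, which had the fewest, with each CG in capitals:
Mgll, chr4:122749186-122749485, plus strand: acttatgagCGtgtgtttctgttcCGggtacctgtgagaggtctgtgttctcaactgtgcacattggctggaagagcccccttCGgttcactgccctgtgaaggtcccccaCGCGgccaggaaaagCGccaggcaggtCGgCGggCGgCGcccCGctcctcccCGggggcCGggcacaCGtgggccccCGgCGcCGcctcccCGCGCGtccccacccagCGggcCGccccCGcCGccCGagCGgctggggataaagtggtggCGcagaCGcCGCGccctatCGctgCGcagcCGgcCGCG
Faah, chr5:134735347-134735646, minus strand: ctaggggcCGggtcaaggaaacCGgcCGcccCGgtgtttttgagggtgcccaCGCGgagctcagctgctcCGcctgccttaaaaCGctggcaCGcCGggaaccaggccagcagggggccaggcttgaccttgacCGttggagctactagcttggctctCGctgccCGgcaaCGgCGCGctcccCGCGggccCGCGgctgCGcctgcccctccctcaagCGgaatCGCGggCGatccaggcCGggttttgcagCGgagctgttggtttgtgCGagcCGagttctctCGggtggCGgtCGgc
Cnr2, chr5:153408934-153409233, plus strand: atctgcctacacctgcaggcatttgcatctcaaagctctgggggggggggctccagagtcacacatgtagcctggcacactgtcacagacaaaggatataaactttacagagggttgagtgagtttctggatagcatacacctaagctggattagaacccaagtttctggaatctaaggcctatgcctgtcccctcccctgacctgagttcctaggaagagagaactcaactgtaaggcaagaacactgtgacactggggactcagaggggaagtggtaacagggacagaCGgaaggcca

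The motif searched was CG, which reads the same on both strands. The Mgll window held 35, a number reached by 6.13% of 33469 windows of that length, whose median was 7. The Faah and Napepld windows held 32 each (8.37% of all windows), Abhd6 24, Abhd12 23 and Daglb 21. The 3 Cnr2 windows held 1, 10 and 8, of which 1 or more was found in 94.5% of all windows. Faah, listed near 0, thus had a start-site window as rich in CG as that of Napepld, which had a mean FPKM of 7.55 ± 2.01. These counts describe the reference sequence and were not measured in the rats.

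In order of mean FPKM the genes ran Abhd12 (104 ± 24.9), Mgll (49.6 ± 15.2), Cnr1 (34.4 ± 6.59), Dagla (30.0 ± 13.2), Daglb (17.3 ± 1.91), Abhd6 (14.9 ± 0.865), Napepld (7.55 ± 2.01), Cnr2 and Faah. Between neighbours in that order, the sign of the difference was shared by all 3 rats for Abhd12 over Mgll, Abhd6 over Napepld (0.92 ± 0.27), Napepld over Cnr2 (2.28 ± 0.91) and Cnr2 over Faah (0.72 ± 0.57). The other 4 neighbour pairs overlapped between rats. Mgll minus Cnr1 was 0.77, 1.03 and -0.35 in rats 12, 24-4 and 33, and Cnr1 minus Dagla was 0.01, -0.50 and 1.33. Daglb minus Abhd6 was 0.20 ± 0.20. For 8 of the 11 pairs of genes compared within rats the sign was the same in all 3 rats, where the exact two-sided sign-flip permutation test gave p = 0.25, the smallest value 3 rats allow, so no pair could pass 0.05.

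Ratios between the roles differed in how steady they were. Summed breakdown FPKM was 2.79, 3.14 and 3.36 times summed synthesis FPKM in rats 12, 24-4 and 33. For 2-AG alone, with Mgll, Abhd6 and Abhd12 over Dagla and Daglb, the ratio was 3.37, 3.50 and 3.93. On the log2 scale these were 1.63 ± 0.14 and 1.84 ± 0.12, the narrowest of the 5 role ratios computed from sums. They depend on summing over unlike numbers of genes, in which Abhd12 weighs most. Abhd12 alone held 55.6%, 63.6% and 65.9% of the breakdown sum in rats 12, 24-4 and 33. Both ratios thus carry the uncertainty of the reads in the stretch shared with Pygb. With the mean of log2(FPKM + 1) over members, in which Faah weighs as much as Abhd12, breakdown over synthesis was 0.054. That value carries the uncertainty of the Faah rows. The 2-AG ratio, which leaves Faah out, was 0.91 by the same mean. Both ratios of sums were highest in rat 33, the rat with the lowest sums of synthesis and of breakdown FPKM.

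Ratios to the receptors varied more. Synthesis was 1.79 and 2.18 times the receptor sum in rats 12 and 24-4 and 0.950 times in rat 33, a log2 ratio of 0.63 ± 0.63. Breakdown was 4.99, 6.86 and 3.19 times the receptor sum. Faah over Napepld gave log2 ratios of -7.49, -8.71 and -6.13, which carry the uncertainty of the Faah rows.

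**Figure D2:**
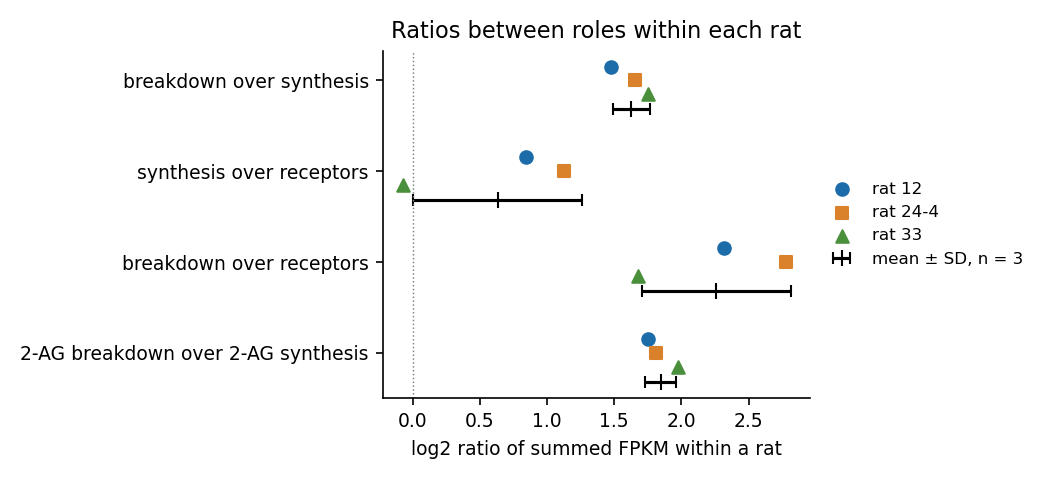
Log2 ratio of summed FPKM between roles within each rat, with the mean and SD of the 3 rats under the points and a dotted line at equal sums. The 2-AG ratio spans 1.75 to 1.97, whereas synthesis over receptors spans -0.07 to 1.13.

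No tested member was called variable between the rats. The test used limma, by setting each gene's variance between rats over the variance expected at its level. Of the 9 genes, 7 had a mean FPKM of at least 1 and were tested, and 0 of 7 were called at an adjusted p under 0.05, against 14 of all 13754 genes tested (0.102%). At an unadjusted p under 0.05 the count was also 0 of 7, against a background of 5.96%. The count over all genes was unstable, at 0 under 7 of 11 other settings, 104 without rat 12 and 64 without rat 33. With 3 animals these counts do not show that the rats were alike.

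Dagla came closest, with an SD of 0.69 where 0.35 was expected (limma adjusted p = 0.899). Without rat 12 its limma adjusted p was 0.592, the lowest of 11 other settings, whose highest was 0.989. Its unadjusted limma p without rat 12 was 0.0199, so the unadjusted count of 0 did not hold in that setting. Mgll had an SD of 0.48 against 0.37 expected (limma adjusted p = 0.993). Abhd6 had 0.08 against 0.35 and Daglb 0.15 against 0.35, and 95.1% and 83.8% of tested genes had a smaller limma p than these. With no minimum level, Cnr2 had an SD of 0.60 (limma adjusted p = 0.985). Its unadjusted limma p in that setting was 0.0764, against 0.105 for Dagla.

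**Figure D3:**
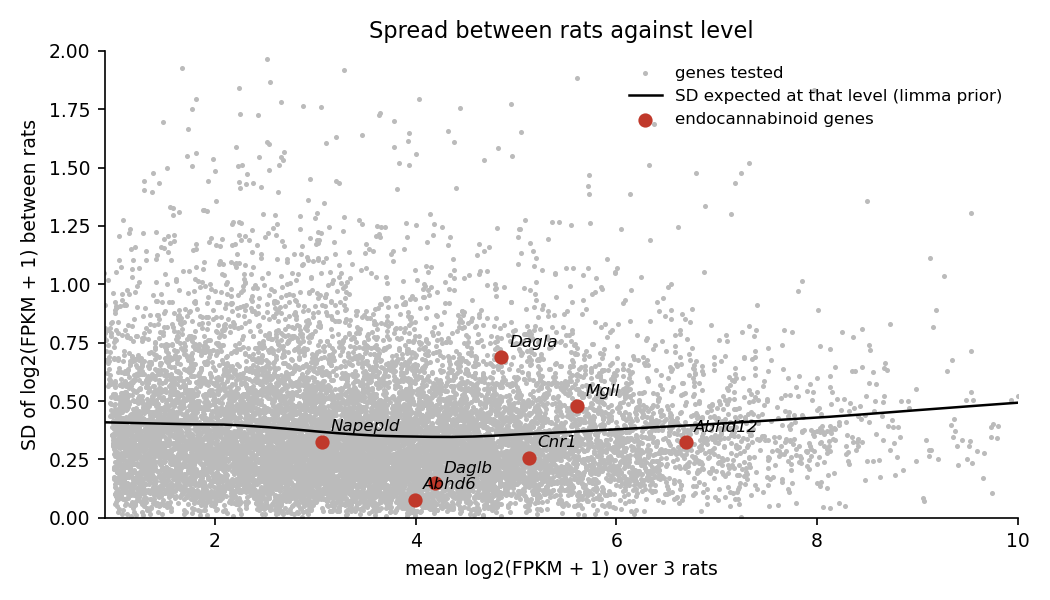
SD between the 3 rats against mean level, both on the log2(FPKM + 1) scale, for genes tested, with the limma prior as a line. Beyond the upper limits of the axes lie 50 genes, and genes under the lower limit of level are cut off and were not counted. Dagla and Mgll lie above the line, and Abhd6 and Daglb lie lowest of the 7 members.

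The members did not share 1 order of the rats. Rat 33 had the highest Cnr1, Cnr2, Daglb and Faah and the lowest Dagla, Napepld and Mgll. Dagla deviated from its mean by 0.16, 0.59 and -0.75 in rats 12, 24-4 and 33, and Mgll by 0.18, 0.36 and -0.54. Abhd12 also had its highest value in rat 24-4, with deviations of -0.22, 0.37 and -0.15. Markers of neurons were low in the same rat as Dagla and Mgll. Of 7 glutamatergic markers 6 were lowest in rat 33, with summed FPKM of 2061, 2160 and 1030 in rats 12, 24-4 and 33, and of 6 GABAergic markers all were, with sums of 471, 518 and 264. Of all genes tested, 28.9% were lowest in rat 33. Oligodendrocyte markers, by contrast, were highest in rat 33 for 7 of 7, with sums of 5385, 7006 and 12245. The part of these markers in the Dagla, Mgll and Cnr1 values was not tested.

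**Figure D4:**
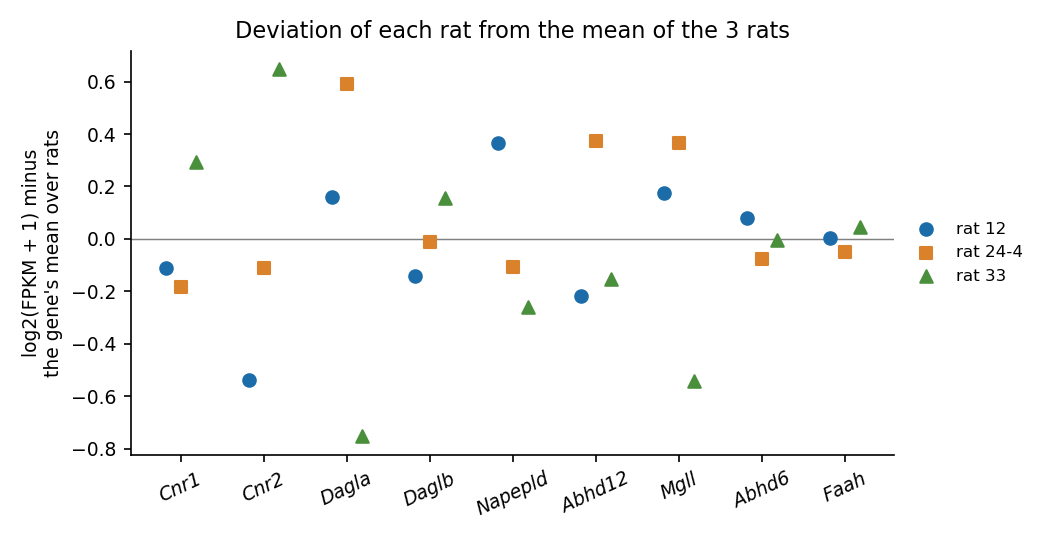
Log2(FPKM + 1) of each rat minus the mean of the 3 rats for each gene, by role. Dagla and Mgll are lowest in rat 33 (-0.75 and -0.54), where Cnr2 and Cnr1 are highest (0.65 and 0.29).

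Cck, the neuropeptide gene of the cortical interneurons that carry the most CB1 receptor, had an FPKM of 155, 327 and 92.2 in rats 12, 24-4 and 33, lowest in the rat with the highest Cnr1. Cck is also made by glutamatergic neurons of the cortex. The other 3 markers of these interneurons each ranked the rats differently from Cck. Slc17a8, which encodes a vesicular glutamate transporter found in some of them, had 0.680, 0.385 and 1.48, in the order of Cnr1. Htr3a, a serotonin receptor channel gene, had 1.59, 3.70 and 3.45, and Npas1, a transcription factor gene, 5.07, 9.11 and 5.67, both lowest in rat 12.

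For each tested member, the closest of 37 other members and pathway genes was sought by deviations over the 3 rats. For Dagla it was Chrm1, which encodes a muscarinic receptor that drives 2-AG release (57.0, 71.6 and 26.6 in rats 12, 24-4 and 33). The root mean square difference was 0.06 on the log2 scale, and 33 of all tested genes (0.240%), Chrm1 among them, were as close or closer. Abhd6 lay closest to Scp2 (1.94% of tested genes as close), Abhd12 to Gna11 (2.97%), Napepld to Sgip1 (2.84%) and Daglb to Naaa (5.66%). For Cnr1 the closest was Daglb, at 0.13, where 10.3% of tested genes were as close. Each match was picked as the closest of 37 candidates, so these shares do not measure how rare it is. With 3 rats such likeness is a description of these libraries.

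Genes of the wider pathway were taken from 6 lists with 38 genes, of which 31 had a mean FPKM of at least 1. At a limma adjusted p under 0.05, 0 of 31 were called variable, against 0.102% of all genes tested. At an unadjusted limma p under 0.05 there were 2 of 31, Plcb4 and Fabp7, against 5.96% of all genes tested. The median SD between rats was 0.45 for these 31 genes, 0.32 for the 7 tested members and 0.32 for all tested genes, on the log2 scale.

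The 6 other receptors and channels listed for these lipids had low levels, and 1 of the 6 had a mean FPKM of at least 1. Their list median was 0.38 ± 0.22 on the log2(FPKM + 1) scale, against 3.48 ± 0.07 for all genes tested. The nuclear receptor gene Ppara had the highest mean, with FPKM of 0.709, 0.496 and 2.12 in rats 12, 24-4 and 33. That rank rests on rat 33, since Trpv1, a cation channel gene that anandamide can open, had 0.656, 0.703 and 0.685. Highest and lowest below also go by the mean of the 3 rats. Gpr55, a receptor for lysophospholipids, was listed at 0.0678, 0 and 0.0800, and Gpr119 was listed at 0 in all rats. Cnr1 therefore exceeded Cnr2 and each of the 6 listed receptor and channel genes in each rat.

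Partners of CB1 were abundant, with a list median of 5.42 ± 0.14 and all 9 genes at a mean FPKM of at least 1. Gnao1, the G protein alpha subunit gene most typical of neurons, was highest (158 ± 21.6), and Gnai3 lowest (17.2 ± 7.36). Genes upstream of 2-AG release had a median of 4.08 ± 0.46, with Chrm1 at the top (51.7 ± 22.9). Of these 10 genes, 6 were highest in rat 12, as were 23.8% of all genes tested, and 6 were lowest in rat 33, where neuron markers were low, as were 28.9% of all genes tested. Plcb4, a phospholipase C gene, stood at 17.4 FPKM in rat 12, against 3.14 in rat 24-4 and 4.10 in rat 33 (limma adjusted p = 0.521).

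Enzymes of other routes to N-acylethanolamines were more abundant than Napepld in 3 of 5 cases. Their list median was 4.20 ± 0.45 on the log2(FPKM + 1) scale. Gde1, a glycerophosphodiester phosphodiesterase gene, was highest (113 ± 15.1), and Ptpn22, a phosphatase gene, lowest (0.463 ± 0.240). Among other breakdown and oxidation genes, with a median of 1.99 ± 0.15, Naaa, the acid amidase of lysosomes, had 7.91 ± 1.50, and Alox12, a lipoxygenase gene, 0.941 ± 0.864.

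Of the carriers that move these lipids inside cells, Fabp7, a fatty acid binding protein gene of astrocytes and progenitors, had the highest mean (56.1, 137 and 439 in rats 12, 24-4 and 33; limma adjusted p = 0.394), although in rat 12 Fabp5 was higher, at 60.0. Scp2, a sterol carrier gene, had the lowest mean (36.3 ± 3.41), although in rat 33 Fabp3 was lower (28.1, against 36.9 for Scp2), and the median of the 4 carrier genes was 6.18 ± 0.35. Of 7 astrocyte markers 6 were lowest in rat 12, with summed FPKM of 1113, 1455 and 1595, and their part in the Fabp7 values was not tested.

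**Figure D5:**
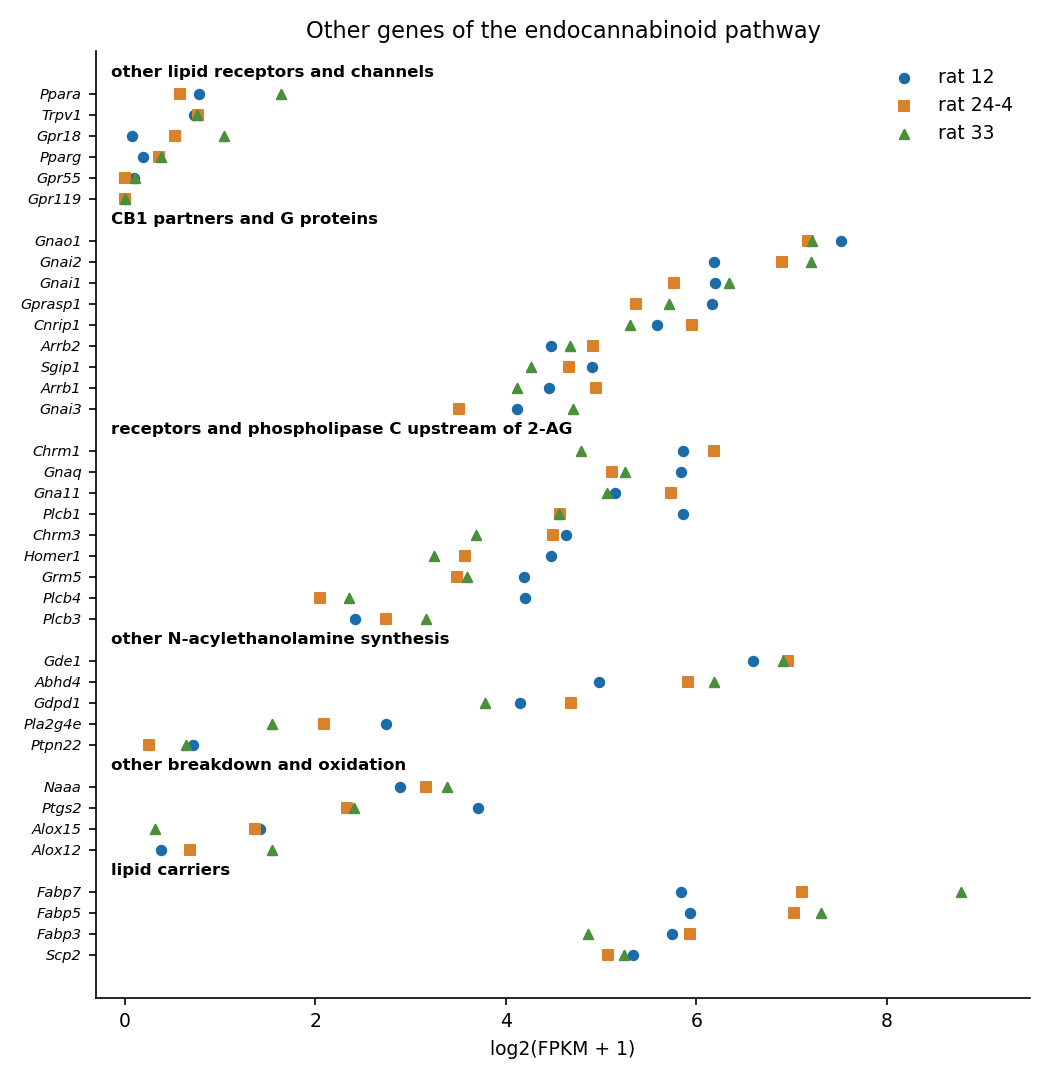
Log2(FPKM + 1) of 37 other pathway genes in each rat, in 6 groups, each sorted by mean FPKM. Fabp7 spreads widest among the carriers, with rat 33 highest, and Plcb4 stands apart in rat 12.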

How the data were processed

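Messenger RNA of motor cortex was sequenced from 3 rats, 1 library each. FPKM is the deposited unit, which the authors made from normalized fragment counts, per the series' design text. The submitters' processing notes name HISAT2 2.0.4, StringTie 1.3.0 and build Rnor_6.0. How counts were normalized, and whether strand was used, is not given in the sources used here.

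Loci no longer than 400 bp, where single fragments give visible steps, served to estimate depth. It came to 15340000, 17250000 and 13010000 fragments in rats 12, 24-4 and 33. The share of their values within 0.02 of a whole fragment was 91.3% (690 values), 91.5% (674) and 92.2% (715). A 1 kb gene holding 3 fragments, the floor used here, has an FPKM of 0.196, 0.174 and 0.231 in the same order. Floors cover counting error only. A 0 can be a failed estimate.

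The test across genes was an intercept fit with limma 3.58.1 (R 4.3.3) on log2(FPKM + 1) for genes whose mean FPKM reached 1. It used a trended and robust prior with 7.96 degrees of freedom for every gene (a choice made after a version with gene-wise degrees of freedom had been run), a one-sided F test of residual over prior variance, Benjamini-Hochberg adjustment over 13754 genes and a threshold of 0.05. On simulated data with spreads drawn from the same prior, it recovered 2% of genes shifted 4-fold in 1 rat and 86% of those shifted 16-fold. Other steps used scipy 1.17.1, pandas 2.3.3, numpy 2.4.6 and Python 3.11.15. Where a symbol had more than 1 row, the row with the higher mean entered the fits and sums. The members, lists, pairs and tests were chosen with earlier results of these data known. Of the pathway lists, the highest and lowest genes above 0, those called variable and those listed at 0 are named; other genes that are no members, such as Plcb4, Cck and Fuca1, were named after their values were seen. Values of 1 pathway gene are not reported here, though it is counted in its list.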

Additional observations from a re-analysis of the deposited data

How the results depend on the processing

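No member was called variable between rats under any of the 11 alternatives, while the count over all genes moved from 14. It was 23 with a pseudocount of 0.1, and 0 with a minimum mean FPKM of 0.1, without any minimum, under a non-robust prior, after rescaling without mitochondrial genes, or with equal upper quartiles. Unadjusted limma p-values under 0.05 numbered 903, 864, 733, 624 and 740 under those last 5 settings. Leaving out 1 rat gave 0 (without rat 24-4) to 104 (without rat 12). The cause was not tested. Prior degrees of freedom set gene by gene, as limma's robust option gives them, called 0 genes, with 631 at an unadjusted limma p under 0.05. That version was run first. It was replaced by common degrees of freedom after both counts had been seen, because it recovered none of the genes changed in simulated data. The simulated variances were drawn with the common degrees of freedom, so the simulation cannot decide between the versions. The gene-by-gene version is listed as an alternative added after the data were seen. The count of 14 therefore rests on the choice of common degrees of freedom.

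Role ratios depended on how members were combined. With the mean of log2(FPKM + 1) over members in place of summed FPKM, breakdown over synthesis was 0.054, breakdown over receptors 1.13, 2-AG breakdown over 2-AG synthesis 0.91, and Faah over Napepld -3.00. With the median, breakdown over synthesis was 0.69, the 2-AG ratio 1.09 and Faah over Napepld -3.00. A mean over members gives Faah the same weight as Abhd12. Cnr1 minus Dagla ran from -0.25 without rat 33, the reverse of its sign over all rats, to 0.67 without rat 24-4. Of the 55 alternatives of the gene differences, 48 kept their sign and moved by less than the spread between rats, and 6, all pairs with Cnr2 or Faah, moved with the pseudocount. Cnr1 minus Cnr2 was 5.56 at a pseudocount of 0.1.

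Leaving out the mitochondrial genome raised all levels by 0.45, 0.22 and 0.34 on the log2 scale in rats 12, 24-4 and 33. Mgll was then highest in rat 12, Daglb lowest in rat 24-4 and Abhd12 lowest in rat 33. Depth limits Cnr2 and Faah most. No paired analysis was possible because there was 1 group.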
